A study of Homo sapiens with 8 samples.

Results

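The 81 genes described here encode the proteins of the cytoplasmic ribosome. They are the protein-coding genes of GENCODE version 44 whose symbol is RPL or RPS followed by a number (with A, X or L where needed), or RPSA, RPLP0, RPLP1 or RPLP2, out of 62639 genes in the deposited table. Of these, 32 belong to the small (40S) and 49 to the large (60S) subunit. RNA came from MOLM-13, a human acute myeloid leukemia line, in which a lentivirus carried a doxycycline (dox) inducible shRNA against PTBP1 (shPTBP1, 4 libraries labelled PTBP1 KD) or a scrambled shRNA (shSCR, 4 libraries labelled WT). Both groups received dox for 9 days, both carried the vector with its mCherry and truncated NGFR markers, and each group rests on 1 hairpin in 1 line. Full-length cDNA was read by nanopore, and the authors counted reads per annotated transcript. The comparison asks which transcripts change when PTBP1, an RNA-binding protein that represses exons next to pyrimidine-rich sequence, is depleted.

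A ribosome holds one copy of nearly every one of these proteins, so cells make them in matched amounts. Their mRNAs are among the shortest and most abundant of a growing cell, and most start with a run of pyrimidines (a 5′ terminal oligopyrimidine, or TOP, sequence) through which mTOR and LARP1 set their translation. The genes have left a large number of processed pseudogenes in the genome, which complicates the placing of their reads. Loss of 1 copy of several of them causes Diamond-Blackfan anemia, a failure of red cell production.

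The libraries held between 1528449 and 1613342 counts. PTBP1 itself had 10, 15, 13 and 23 counts in the shPTBP1 libraries and 65, 90, 64 and 78 in the shSCR libraries, a log2 fold change of -2.26 ± 0.22 (SE; edgeR quasi-likelihood test, Benjamini-Hochberg adjusted p = 7.18e-05). Of 7 myeloid markers, SPI1 had at most 1 count in any library, FLT3 and MPO had at most 25, and LYZ, CEBPA, CD33 and CSF3R had at least 93. Summed over the list, the myeloid markers were at 667 to 779 CPM (TMM-normalized counts relative to the library total) in shPTBP1 and 596 to 653 in shSCR libraries. LYZ held most of that difference, with means of 345 and 274 CPM. CD33 was at 78.0 to 102.0 CPM in shPTBP1 and 67.4 to 75.8 CPM in shSCR libraries, without overlap. The log2 fold change was 0.10 for CEBPA and -0.19 for CSF3R. Of the 5 markers tested, 4 had a log2 fold change above 0 and none was called. FLT3, not tested, had 3 to 12 counts per library and means of 2.93 and 5.56 CPM. Its groups were barely apart, with shPTBP1 libraries at up to 3.95 CPM and shSCR libraries from 4.00 CPM. The 7 lymphoid and erythroid markers summed to at most 2.00 CPM in any library, with CD3D, CD3E and HBB among those at 0. In bulk RNA, a change in the number of cells of a type and a change in RNA per cell cannot be told apart, and the part of the myeloid markers in the results below was not tested.

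Ribosomal protein genes took a slightly larger mean share of the counts after PTBP1 KD, but the groups overlapped. Their share of all counts was 12.5%, 14.2%, 13.8% and 13.6% in the shPTBP1 libraries and 12.7%, 11.97%, 12.8% and 13.2% in the shSCR libraries. The 3 shPTBP1 libraries other than replicate 1 lay above every shSCR library, while replicate 1 lay among them. The means were 13.5% ± 0.742 (SD, n = 4) and 12.7% ± 0.507 (SD, n = 4). The small subunit genes took 4.53% ± 0.299 (SD, n = 4) against 4.16% ± 0.228 (SD, n = 4), and the large subunit genes 8.99% ± 0.447 (SD, n = 4) against 8.49% ± 0.281 (SD, n = 4). The ratio of large to small subunit counts was 1.99 ± 0.0418 (SD, n = 4) in shPTBP1 and 2.04 ± 0.0464 (SD, n = 4) in shSCR libraries, and it overlapped as well. shPTBP1 replicate 1 also differed from the other shPTBP1 libraries in its mean transcript length, weighted by counts, which was 1883 bases against 1817 to 1825 in the 3 others. The shSCR libraries ran from 1833 to 1903 bases, so replicate 1 lay within their range. With a trend in transcript length, fitted per library over the other genes, removed from the counts, the median log2 fold change of the members (described next) was 0.10 and 8 were called higher.

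Gene by gene, nearly all fitted changes were small and upward. Of the 81 genes, 75 passed the filter on low counts, and 69 of these (92%) had a log2 fold change above 0, against 50% of the 7597 genes tested. Their median was 0.12, with quartiles of 0.08 and 0.19, and the median over all genes tested was 0.00. The 31 small subunit genes had a median of 0.12 and the 44 large subunit genes one of 0.13. The median was between 0.09 and 0.18 when each library was left out in turn. These genes share the 8 libraries and the same normalization, so that they do not count as separate observations.

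Of the 75 genes, 5 rose and none fell at an adjusted p under 0.05 (edgeR quasi-likelihood test). The 5 make 6.67% of the members tested, while 2.36% of all genes tested were called higher and 3.19% lower. Before adjustment, 23 members (30.7%) had a p under 0.05, against 19.2% of all genes tested, and 1 of them, RPS2, was lower, against 10.1% of all genes. DESeq2 called 9 members higher and 1 lower, while of all genes to which it gave an adjusted p it called 3.44% higher and 3.23% lower. The calls were 5 higher and 0 lower with limma-voom (2.05% and 2.9% of all genes), and 5 higher and 1 lower with limma-trend on the CPM values (1.7% and 3.58% of all genes). In 9 members (12%) every shPTBP1 library lay above every shSCR library, against 6.32% of all genes tested, and in no member did every shPTBP1 library lie below, against 6.37%. The median SE was 0.08 for members and 0.17 over all genes tested, so the same small change passes a limit more readily in members. These shares were not compared with those of genes of like abundance. The number called higher depended on single libraries: it was 11 without shPTBP1 replicate 1, 0 without shPTBP1 replicate 2 or without replicate 3, 1 without shPTBP1 replicate 4, 1 without shSCR replicate 1, 3 without shSCR replicate 2, 5 without shSCR replicate 3 and 2 without shSCR replicate 4.

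**Figure D1:**
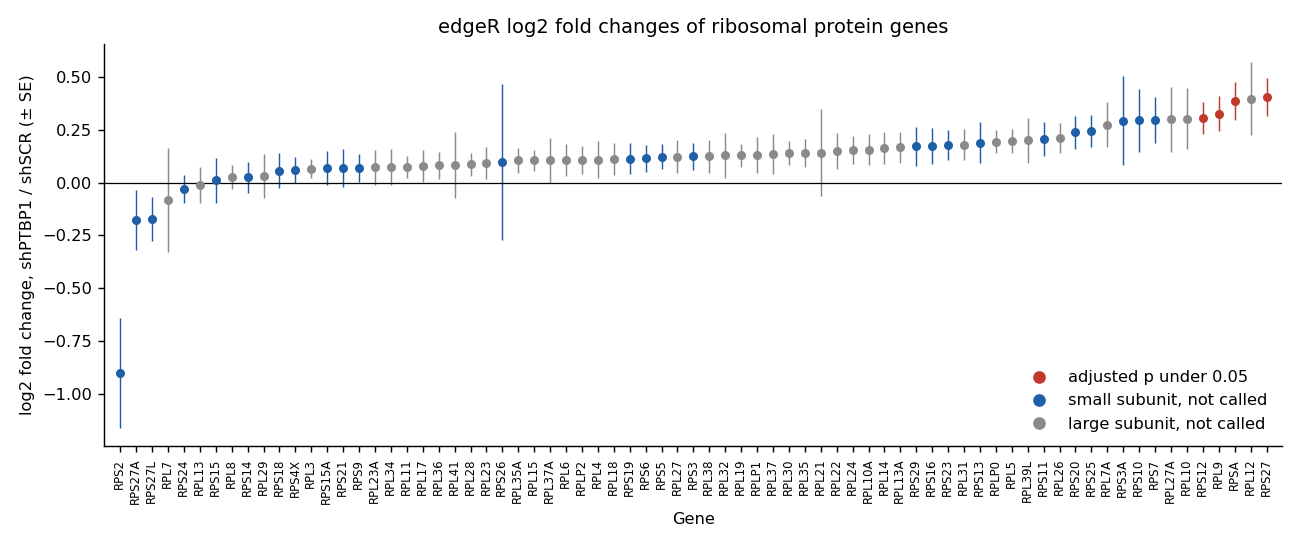
Fitted log2 fold change (shPTBP1 over shSCR, vertical axis) of 73 of the tested ribosomal protein genes, ordered by size along the horizontal axis; points are edgeR estimates, bars are ± 1 standard error, and red marks the 4 plotted genes with an adjusted p under 0.05. The points form a nearly flat band just above 0, with 67 of 73 above the line and RPS2 alone far below at -0.90.

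The called genes were 4 members of the small subunit and 1 of the large subunit, of which 4 are described. RPS27 (chr1:153990762-153992155, + strand) encodes a zinc-finger protein of the 40S subunit. It was at 109, 135, 124 and 127 CPM in shPTBP1 and 86.6, 93.6, 100.03 and 93.7 CPM in shSCR libraries. RPSA (chr3:39406716-39426255, + strand), the 40S protein also known as the laminin receptor, was at 74.7, 78.6, 76.4 and 74.3 CPM in shPTBP1 and 54.7, 61.8, 58.0 and 58.4 CPM in shSCR libraries. In neither gene did the groups overlap. The log2 fold changes were 0.40 ± 0.09 (SE, edgeR adjusted p = 0.0193) for RPS27 and 0.38 ± 0.09 (SE, edgeR adjusted p = 0.0261) for RPSA. DESeq2 did not call RPSA (adjusted p = 0.0993).

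RPS12 (chr6:132814569-132817564, + strand), a 40S protein, was more abundant, at 2795, 3465, 3293 and 3213 CPM in shPTBP1 and 2642, 2254, 2624 and 2808 CPM in shSCR libraries. Its groups touched, since shPTBP1 replicate 1 lay just below shSCR replicate 4, and edgeR fitted a log2 fold change of 0.31 ± 0.08 (SE) at an adjusted p of 0.0340. RPL9 (chr4:39452587-39458931, - strand), a 60S protein near the stalk base, was at 148, 181, 162 and 160 CPM in shPTBP1 and 128, 132, 139 and 121 CPM in shSCR libraries. Its groups did not overlap, and edgeR gave 0.33 ± 0.08 (SE) on the log2 scale, with an adjusted p of 0.0347. RPL9 was not called with library totals in place of TMM (edgeR adjusted p = 0.0532) or with limma-trend (adjusted p = 0.0557). Nearly all RPS27 counts, 91.4%, lay on RPS27-203, which GENCODE types as a retained-intron transcript.

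The start sites of the called genes show the pyrimidine run of the family, and are given for that reason. Each line holds 15 bases before and 15 bases from the RefSeq start of transcription (GRCh38.p14), with the longest run of C and T in capitals.
RPS27 (chr1:153990747-153990776, + strand): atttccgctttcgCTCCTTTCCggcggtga
RPSA (chr3:39406705-39406734, + strand): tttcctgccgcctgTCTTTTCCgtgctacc
RPS12 (chr6:132814554-132814583, + strand): gcgtgcggatgaggCCTCTTTCCCTgccgc
RPL9 (chr4:39458908-39458937, - strand): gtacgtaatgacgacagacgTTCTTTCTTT
In RPS27, RPSA and RPS12 the first transcribed base is a C followed by at least 4 pyrimidines, which is the TOP form, while in RPL9 the run starts 6 bases into the annotated transcript. The table matched 64 of the 81 members (79.0%), too few for a statement on all of them. Of the matched promoters, 42 (65.6%) had a C at the start followed by 4 bases that are each C or T on the transcribed strand, against 5.59% of the 5997 promoters of other tested genes and 4.04% of all 27305 promoters. Within 10 bases of the start on either side the shares were 85.9%, 33.1% and 33.3%.

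RPS2 had the largest fitted decrease among the members, and is named here after its values were seen. RPS2, a 40S protein at the mRNA entry channel, was at 19.6, 23.1, 40.2 and 55.7 CPM in shPTBP1 and 51.6, 80.2, 54.7 and 72.5 CPM in shSCR libraries. The groups overlapped through shPTBP1 replicate 4. On 31 to 126 counts per library, edgeR fitted a log2 fold change of -0.90 ± 0.26 (SE), and the adjusted p was 0.0627. RPS2 was called lower without shPTBP1 replicate 4, by DESeq2 and under several other settings, and its coding sequence matched another locus over 98.7% of its bases.

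The acidic stalk of the 60S subunit, which recruits the elongation factors, is built from RPLP0 and the paired proteins RPLP1 and RPLP2. RPLP0 was at 995, 995, 928 and 975 CPM in shPTBP1 and 840, 828, 908 and 829 CPM in shSCR libraries. The groups did not overlap, yet the log2 fold change of 0.19 ± 0.06 (SE) missed the threshold (edgeR adjusted p = 0.0603). RPLP1 and RPLP2 had log2 fold changes of 0.13 ± 0.08 (SE) and 0.11 ± 0.07 (SE), with overlapping groups. None of the 3 was called by edgeR, and DESeq2 called 1, RPLP0. Before adjustment, 1 of the 3 (33.3%) had an edgeR p under 0.05, beside 19.2% of all genes tested.

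RPL5 and RPL11 join 5S rRNA in the particle that binds MDM2 when ribosome assembly fails. RPL5 was at 8330, 9294, 9135 and 8994 CPM in shPTBP1 and 7710, 7140, 8312 and 8083 CPM in shSCR libraries. The lowest shPTBP1 library, replicate 1, lay just above the highest shSCR library, and the fitted log2 fold change of 0.19 ± 0.06 (SE) had an edgeR adjusted p of 0.0647. RPL11 was at 5558 ± 336 CPM (SD, n = 4) in shPTBP1 and 5282 ± 180 CPM (SD, n = 4) in shSCR libraries, with a log2 fold change of 0.07 ± 0.05 (SE). Neither was called by edgeR, and DESeq2 called RPL5. Before adjustment, 1 of the 2 (50%) had an edgeR p under 0.05, beside 19.2% of all genes tested.

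A list of 11 genes linked to Diamond-Blackfan anemia included RPS19, RPS7, RPS10, RPS24, RPS26, RPL5, RPL11, RPL35A, RPS14 and RPL15. It does not hold every gene linked to the disease, and none of the called members was on it. The counts therefore describe these 11 only. None of the 11 was called by edgeR, and 1 was called higher by DESeq2, beside 3.44% of all genes in that test. Before adjustment, 2 (18.2%) had an edgeR p under 0.05, beside 19.2% of all genes tested. Their median log2 fold change was 0.10, beside 0.12 over all members. RPS19, the gene most often affected in the disease, was at 4211 ± 308 CPM (SD, n = 4) in shPTBP1 and 3897 ± 367 CPM (SD, n = 4) in shSCR libraries, a log2 fold change of 0.11 ± 0.07 (SE). RPS14, a gene lost in the 5q deletion of myelodysplastic syndrome, changed by 0.03 ± 0.07 (SE) on the log2 scale. The groups did not overlap for RPS7 (log2 fold change 0.29 ± 0.11, SE, edgeR adjusted p = 0.144) and RPL15 (0.10 ± 0.05, SE, edgeR adjusted p = 0.273), besides RPL5. These 3 make 27.3% of the 11, beside 12% of all members tested and 6.32% of all genes tested.

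Of 4 paralogous copies that the rule takes in, 2 had no counts. RPL3L, the striated muscle copy of RPL3, and RPL10L, the testis copy of RPL10, had 0 counts in all 8 libraries. Since 3 counts is the limit that a count of 0 allows, their levels were at most 1.86 to 1.96 CPM per library. RPL39L, a copy of RPL39 used in testis and in some tumours, was at 142 ± 14.0 CPM (SD, n = 4) in shPTBP1 and 124 ± 17.2 CPM (SD, n = 4) in shSCR libraries, and RPS27L, a p53-responsive copy of RPS27, at 80.1 ± 5.81 CPM (SD, n = 4) and 90.3 ± 10.9 CPM (SD, n = 4). Neither passed the test, before or after adjustment.

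Of 7 ribosomal protein genes whose names fall outside the rule, RPL22L1, the copy of RPL22, rose (edgeR, log2 fold change 0.36 ± 0.10 SE, adjusted p = 0.0435), at 234, 309, 317 and 305 CPM in shPTBP1 and 208, 218, 241 and 240.0 CPM in shSCR libraries. Its groups overlapped through shPTBP1 replicate 1, and DESeq2 called it while limma-voom and limma-trend did not. The 6 others did not pass. Among them the fitted log2 fold changes were 0.15 for FAU, made as a fusion with a ubiquitin-like protein, 0.05 for RACK1, the 40S scaffold protein, 0.04 for RPL36AL, -0.03 for RPL26L1 and -0.08 for RPL7L1.

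Other mRNAs of the TOP class were read alongside. Of 14 such genes, mostly elongation and initiation factors, 13 were tested and edgeR called 4 higher (30.8%) and none lower, beside 2.36% and 3.19% of all genes tested, with a median log2 fold change of 0.19. DESeq2 called 5 of them higher, limma-voom 4 and limma-trend 2, beside 3.44%, 2.05% and 1.7% of all genes in those tests. The 4 were EEF1G, a subunit of the elongation factor 1 complex (0.34 ± 0.07 SE, edgeR adjusted p = 0.0129), EIF4B, an initiation factor that assists the eIF4A helicase (0.24 ± 0.05 SE, adjusted p = 0.0193), EIF3E, a subunit of initiation factor 3 (0.20 ± 0.05 SE, adjusted p = 0.0330), and PABPC1, the poly(A)-binding protein (0.23 ± 0.06 SE, adjusted p = 0.0475). Before adjustment 6 (46.2%) had an edgeR p under 0.05, beside 19.2% of all genes tested, and none of these was lower. The median SE of the 13 genes was 0.06, beside 0.17 over all genes tested. Of 15 genes of the mTOR complex and of TOP control, a list that also takes in transcription factors, 11 were tested. Of these, edgeR called 1 lower, beside 3.19% of all genes tested. Before adjustment 1 (9.09%) had a p under 0.05, against 19.2% of all genes. The called gene, MLST8, an mTOR subunit, fell by 0.51 on the log2 scale (SE 0.12, edgeR adjusted p = 0.0243). MLST8 was at 38.4 to 45.6 CPM in shPTBP1 and 52.8 to 68.0 CPM in shSCR libraries, with no overlap, and was not called by DESeq2. LARP1 had too few counts to be tested.

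The counts of the 81 genes spanned 0 to 118888 over the 8 libraries together. Per kilobase of transcript, the highest levels among tested members were RPL30 (19245 CPM per kb), RPL38 (17458), RPS20 (13721), RPL35A (10969) and RPLP2 (9643). The lowest were RPS26 (4.66), RPL7 (9.48), RPL27A (16.2), RPL21 (20.7) and RPL10 (21.8). A full-length read is counted once whatever its length, so dividing by length raises short transcripts in this ranking. By counts alone, the 5 highest were RPL30 (118888), RPL5 (103981), RPS20 (90070), RPL38 (82081) and RPL8 (78299). These 5 genes held 28.7% of the members' counts and the 10 with most held 47.8%. Of the 81 members, 6 were not tested, among them RPL3L and RPL10L at 0, RPL39 with 25 counts in all, RPS28 with 43 and RPL36A with 83.

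How closely a gene resembles another place in the genome moved with these counts. The measure was chosen after an earlier one, on whole transcripts, had related only weakly to them. The coding sequence of each gene's canonical transcript was aligned to hg38 with minimap2, the aligner the authors used, who kept only reads with a mapping quality above 50. The coding sequence reached no more than 50 in 25 of the 81 members (30.9%), against 1.10% of 7177 other tested protein-coding genes. Those 25 had a median of 818 counts over the 8 libraries, and held 7.99% of the members' counts. The 55 members above 50 had a median of 18650 counts, and RPL41 gave no alignment.

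The share of coding bases matched at the best other locus could be had for 77 members and ran from 76.3% to 100%. Members with at least 98% matched elsewhere (34 genes) had a median of 850 counts, those between 95% and 98% (26 genes) a median of 22444, and those under 95% (17 genes) a median of 47925. Over the 77 genes, Spearman's rho between this share and the counts was -0.72, a description across genes that share all 8 libraries. Since the measure was chosen with the counts known, rho and these medians are no test of the relation. Coding sequences lack the sequencing errors and untranslated ends of real reads, so these values describe the genes and not the reads. Of the genes called higher, RPS27 and RPL9 had a mapping quality of 1, RPS12 of 29 and RPSA of 37. Among the 53 tested members above 50 the median log2 fold change was 0.11, and among the 21 at 50 or less it was 0.17. The part of read placement in these calls was not tested.

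Some pseudogenes had far more counts than the members they are named after. Of 1588 annotated pseudogenes named after members, 135 had a count, and together they held 1.20% ± 0.0617 (SD, n = 4) of counts in shPTBP1 and 1.16% ± 0.0242 (SD, n = 4) in shSCR libraries. RPL13AP5 had 71080 counts in all, where RPL13A had 7897, and RPL36AP37 had 55339, where RPL36A had 83. RPS7P1 had 7744 counts and RPS7 had 628, with log2 fold changes of 0.08 and 0.29. None of the 22 pseudogenes tested was called by edgeR, DESeq2, limma-voom or limma-trend, and 4 (18.2%) had an unadjusted p under 0.05 in edgeR, beside 19.2% of all genes tested. Like the members, most moved upward: 18 of the 22 (81.8%) had a log2 fold change above 0, beside 50% of all genes, with a median of 0.11. In 4 (18.2%) every shPTBP1 library lay above every shSCR library, beside 6.32% of all genes, and in 0 did every one lie below. Whether their reads came from pseudogene RNA or from the parent mRNAs was not tested.

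The transcript types on which members were counted varied. For 70 members the transcript with most counts was typed as protein coding, for 6 as a retained intron, for 2 as lacking a defined coding sequence and for 1, RPL35A, as a target of nonsense-mediated decay. RPL35A-202, at 442 bases, held 67.9% of RPL35A's counts, and RPL12-204, without a defined coding sequence, held 94.8% of those of RPL12. Over all members, decay-annotated transcripts held 4.05% ± 0.0514 (SD, n = 4) of the members' counts in shPTBP1 and 4.16% ± 0.0390 (SD, n = 4) in shSCR libraries, without overlap. Most of this sum is RPL35A-202, with 46185 counts over the 8 libraries, so it largely follows that isoform. The same share among other genes is not given here.

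One ribosomal protein gene changed its splicing by a large amount. RPS24, an early assembly factor of the 40S subunit and a Diamond-Blackfan anemia gene, had overlapping gene levels, at 3663, 4301, 4140 and 4001 CPM in shPTBP1 and 4020, 3731, 4235 and 4468 CPM in shSCR libraries, with a log2 fold change of -0.03 ± 0.07 (SE). Its last coding bases come in alternative forms. RPS24-202 includes an exon of 22 bases between exon 4 and the last exon, and RPS24-214, the main isoform here, skips it. The sequences are shown because they set the end of the protein. The first line gives the end of exon 4 with no capitals, the second the 22-base exon with its stop codon in capitals, and the third the first 12 bases of the last exon, read after skipping, with its stop codon in capitals.
RPS24 exon 4 end (chr10:78037293-78037304, + strand, GRCh38): gctggcaaaaag
RPS24 22-base exon (chr10:78040204-78040225, + strand): TGAgctggagattggatcacag
RPS24 last exon start (chr10:78040615-78040626, + strand): ccgaaggagTAA
With the exon, the reading frame meets the stop codon at once and the annotated coding sequence has 130 codons before it. Without the exon, 9 more coding bases follow, and it has 133.

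RPS24-202 rose from 8.17% ± 0.298 (SD, n = 4) to 20.6% ± 0.958 (SD, n = 4) of the gene's counts. Its share was 20%, 21.9%, 20.7% and 19.8% in the shPTBP1 libraries and 7.92%, 8.60%, 8.08% and 8.07% in the shSCR libraries. The groups lay far apart, with a difference of 12.5 percentage points. RPS24-202 was the only 1 of 215 tested member isoforms, from 63 genes, to pass both limits, which are an adjusted p under 0.05 and a share changed by 10 points or more (edgeR's diffSpliceDGE, adjusted p = 8.16e-14). That is 0.465% of member isoforms, beside 1.12% of the 5464 isoforms tested in all. An exact two-sided permutation test gave p = 0.0286, the smallest that 4 against 4 libraries allow. Adjusted over the 16 isoforms looked at singly, it was 0.0571. Several of the 16, RPS24-202 among them, were listed because their groups did not overlap, which fixed that smallest p for them. The permutation values therefore add no support to the call.

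Counting every RPS24 transcript with the exon, in its 22-base form or a 25-base form that starts 3 bases earlier, gave a similar difference, in a sum chosen after the values were seen. The share was 20.8%, 22.7%, 21.3% and 20.6% in shPTBP1 and 8.27%, 8.96%, 8.31% and 8.402% in shSCR libraries, 2.52-fold higher on average. In level, RPS24-202 was at 733, 943, 858 and 793 CPM in shPTBP1 and 318, 321, 342 and 361 CPM in shSCR libraries, 2.48-fold higher. RPS24-214 was at 2810, 3229, 3133 and 3078 CPM in shPTBP1 and 3573, 3308, 3764 and 3976 CPM in shSCR libraries, 0.838 times as high. Neither isoform's levels overlapped between the groups, and the changes were in opposite directions. RPS24-203, which carries the 25-base form, went from 0.308% ± 0.0636 (SD, n = 4) to 0.670% ± 0.0902 (SD, n = 4) of the gene's counts, with an adjusted p of 6.79e-04 in diffSpliceDGE but a change under 10 points.

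The intron just before this exon is shown because PTBP1 binds pyrimidine-rich RNA. The line gives the 100 intronic bases before the exon in lower case and the 22-base exon in capitals.
RPS24 intron and exon (chr10:78040104-78040225, + strand, GRCh38): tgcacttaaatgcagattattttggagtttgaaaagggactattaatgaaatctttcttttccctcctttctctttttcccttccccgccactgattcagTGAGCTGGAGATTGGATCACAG
Of the 100 intronic bases, 64 were pyrimidines, and 13.0% of the 158252 regions of the same length before internal exons of canonical protein-coding transcripts had as many. TCTT, searched on the transcribed strand only and with overlapping matches counted, occurred 3 times, a number reached in 9.58% of those regions, while 62.2% held it at least once. CTCTCT was not found in these bases and occurs in 9.01% of the regions. These are matches of letters, and binding was not measured in the data used here.

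A further 3 member isoforms had an adjusted p under 0.05 with a change under 10 points, RPS24-203 among them, so that 4 of 215 (1.86%) passed on p alone, beside 1.79% of all isoforms tested. RPL35A-203 and RPL30-206, chosen after their values were seen, are both typed as targets of nonsense-mediated decay. RPL35A-203 includes a 173-base exon (chr3:197953488-197953660, + strand) that RPL35A-205, the most counted protein-coding isoform, skips, and had 13, 13, 19 and 16 counts in shPTBP1 and 3, 2, 5 and 0 in shSCR libraries (diffSpliceDGE adjusted p = 6.13e-05). In every shPTBP1 library this was at most 0.212% of RPL35A's counts. RPL30-206, which lengthens the third exon, went from 0.151% ± 0.0366 (SD, n = 4) to 0.286% ± 0.0379 (SD, n = 4) of the gene's counts (adjusted p = 0.00970), and RPL30 itself had a log2 fold change of 0.14 ± 0.06 (SE). Both decay-annotated isoforms were thus higher in share in each shPTBP1 library, at very low shares.

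The remaining member isoforms that were tested did not pass. Groups did not overlap in 19 of the 215 member isoforms (8.84%), against 10.7% of all isoforms tested. Besides the 2 RPS24 isoforms, the largest such changes of share were in RPL27A-206 (from 51.0% to 42.7%, on 20 to 33 counts per library), RPS10-201 (from 18.5% to 24.8%, on 11 to 28 counts) and RPL38-202 (from 19.3% to 17.6%), none with an adjusted p under 0.05. The most abundant isoforms of RPL3, RPL10A, RPS3 and RPL12, genes known for alternative or decay-prone transcripts, overlapped between groups. RPL3-201, RPL3-211 and RPL12-201 were not among the isoforms tested, so their shares are descriptions only. RPL3-201 held 99.9% of RPL3's counts in both groups. RPL3-211, on 0 to 7 counts per library, held 0.0210% and 0.0501%. RPL10A-201 held 89.1% ± 0.528 (SD, n = 4) in shPTBP1 and 90.1% ± 0.888 (SD, n = 4) in shSCR libraries, and RPL10A-203 4.78% and 4.71%. RPS3-217 held 51.8% and 50.6%, and the decay-annotated RPS3-206 25.2% and 26.0%. RPL12-201, on 1 to 7 counts per library, held 4.31% and 3.76%.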

How the data were processed

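The authors made nanopore cDNA libraries, aligned reads to hg38 with minimap2, kept mapping qualities above 50 and deposited whole-number StringTie counts per transcript. A second deposited table holds CPM, which equalled count over library total to within 1e-06. Tool versions and the annotation are not given in the sources used here. The Ensembl identifiers of 252562 of 254070 transcripts matched GENCODE 44; counts were summed per gene.

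Genes were tested with edgeR 4.0.16 (TMM, filterByExpr with a minimum count of 10, quasi-likelihood test, Benjamini-Hochberg over 7597 genes), and isoforms with diffSpliceDGE (adjusted p under 0.05, share change of at least 0.1). DESeq2 1.42.0, limma 3.58.1 and other settings were alternatives. The labels call the libraries biological replicates without saying that cultures were separate, so p-values measure the spread between these libraries. The limit for a count of 0 covers counting error only.

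Members and lists were chosen with earlier results of these data known. The genes named are the called members, the listed groups, the 5 highest and lowest tested members per kb, called genes of the TOP and mTOR lists and PTBP1; isoforms are those called, the 5 with the largest change and no overlap, and the 2 most abundant of RPS24, RPL3, RPL12, RPL10A and RPS3; others were chosen after their values were seen. Coding sequences were aligned with minimap2 2.31 to the primary chromosomes. This measure was chosen after an earlier one, on whole transcripts, had related only weakly to the counts. The canonical transcripts stand for the genes; no reads were aligned here. Values of 5 listed genes are not reported here.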

Additional observations from a re-analysis of the deposited data

Results flagged for a closer look

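Among 108 groups of 4 libraries looked at, a single library stood apart in 5 by Dixon's gap test; chance alone marks about 1 group in 20. RPLP0 was at 908 CPM in shSCR replicate 3, while the other shSCR libraries were at 828 to 840. RPS20 was at 6584 CPM in shPTBP1 replicate 1, below the 8142 to 8388 CPM of the 3 others. The mean transcript length of shPTBP1 replicate 1 was 1883 bases, and the 3 others were at 1817 to 1825, while the shSCR libraries ran from 1833 to 1903. RPL12-204 held 98.7% of RPL12's counts in shSCR replicate 4 and 93.8% to 94.0% in the others. RPL30-206 held 0.205% of RPL30's counts in shSCR replicate 3 and 0.128% to 0.141% in the others.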

How the results depend on the processing

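The number of members called higher was 5 in the main analysis and 8 without a filter on low counts, 8 with the transcript-length trend removed, 9 with DESeq2 and 3 with the replicate block; the other settings that keep all libraries stayed within 1.5 times. The number called lower was 0, and 1 (RPS2) without a filter, with a mean of at least 50 counts, with the replicate block, with the length trend removed, with protein_coding transcripts only, with DESeq2 and with limma-trend. Leaving out 1 library gave 0 to 11 higher and 0 to 1 lower. The cause was not tested. The median log2 fold change of members stayed between 0.08 and 0.13 under the alternatives that keep all libraries, where the median of all genes moved by less than 0.1, and the difference in their share of counts was 0.63 to 1.21 percentage points when 1 library was left out. RPS24-202 was called in every run that left out 1 library; limma diffSplice called 2 member isoforms, adding RPS24-214, and a minimum change of 0.2 left 0, since the change is smaller than that. Its share difference was 12.02 to 12.7 points without 1 library, and 4 against 3 libraries cannot give a permutation p under 0.0571. Same-numbered libraries did not deviate together (correlations of -0.0328 to 0.00889), so the replicate block rests on a shared number only; RPSA and RPS12 were not called under it. RPS27 could not be tested on protein_coding transcripts alone. RPS26, RPL7 and RPL21 had at most 190 counts in all.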
